A study of Triticum turgidum subsp. durum with 96 samples.

Results

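The miRNAs described here are the listed members of the MIR399 and MIR827 families, 4 of the 110 conserved miRNAs measured in durum wheat small RNA libraries. They were taken by family number alone, from the first identifier of each listed miRNA, with no measured value used. They are Zma-miR399c and Zma-miR399e, named after the maize entries they match, and Bdi-miR827-3p and Bdi-miR827-5p, named after the Brachypodium distachyon entries for the arms of a single hairpin.

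Each of 48 durum wheat plants gave a library from its flag leaf, the last leaf below the spike, and another from its developing head, and the labels give each library its genotype, organ, treatment, season and plant. The genotypes were Tamaroi and Yawa, classed by the study as tolerant to water deficit, and EGA Bellaroi and Tjilkuri, classed as sensitive. Plants were kept at 12% soil water (control) or held at 6% for 15 d (water deficit), and 16 groups of genotype, organ and treatment held 6 libraries each, 3 from each of 2 growing seasons. Organ identity rests on the labels, since the files hold small RNAs and none of the protein-coding markers of either organ. An organ library mixes many cell types, so fewer cells of a type and less RNA per cell cannot be told apart.

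In plants, both families are known for rising when phosphate runs short. In Arabidopsis, miR399 is made in the shoot, moves through the phloem to the root and guides cleavage of the PHO2 transcript, whose product helps remove phosphate transporters from the root. miR827 guides cleavage of the NLA transcript in Arabidopsis, an enzyme that marks phosphate transporters for removal, and of transcripts for SPX-MFS transporters in rice, which move phosphate across the vacuole membrane. Targets and phosphate content were not measured here.

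The mature sequences are shown because the families are defined by them, and because the near-identity of the miR399 pair bears on how its reads can be told apart. They are given 5′ to 3′ with T for U, as the deposited table writes them, with the seed (bases 2 to 8) in capitals.
Zma-miR399c: tGCCAAAGgagaattgccctg
Zma-miR399e: tGCCAAAGgagagttgccctg
Bdi-miR827-3p: tTAGATGAccatcagcaaaca
Bdi-miR827-5p: tTTTGTTGgttgtcatctaacc

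The miR399 sequences had 21 nt each, shared the seed GCCAAAG and differed by A13G, from miR399c to miR399e, counted from 1 at the 5′ end. The authors matched reads to known miRNAs with up to 2 mismatches, so even an exact read of either sequence also lay within tolerance of the other. How such reads were assigned is not known here, so the division between miR399c and miR399e is uncertain. The miR827 arms had seeds of their own, TAGATGA in the 21 nt 3p arm and TTTGTTG in the 22 nt 5p arm. Outside the miR399 pair, 0 other listed miRNAs shared a seed with any member. The miR827 arms are shown again with the bases that can pair with each other in capitals.
Bdi-miR827-5p paired bases: tTTTGTTGGTtGTCATCTAAcc
Bdi-miR827-3p paired bases: TTAGATGACcATCAGCAAAca

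Of 20 aligned positions between the arms, 18 could pair, 16 as Watson-Crick pairs and 2 as G with T (G with U in RNA), with 2 bases of the 5p arm and 1 base of the 3p arm left over at their 3′ ends. Chromosomal positions of the hairpins were not analysed here.

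Values are RPM (reads per M, or mega, of the small RNA reads of a library). Library depth, recovered from the step between values, was 0.609 M reads at the lowest, 5.22 M at the median and 36.1 M at the highest, and 4 developing head libraries fell short of 1 M. The RPM of all 110 listed miRNAs summed to 5514 to 23778 in developing heads and 13511 to 62618 in flag leaves, with medians of 16825 and 33974, and these ranges overlapped. Of the 96 libraries, 3 stood apart, all developing heads of Yawa under water deficit (plants 1a, 2b and 2c, where the digit is the season). Their listed miRNAs summed to 5514, 6428 and 7879 RPM against at least 10442 in the other 93. Results that include these 3 are also given without them where a call is lost or gained or a fold named here moves.

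All 4 members were of middling to low abundance. In flag leaves, miR827-5p averaged 30.5 RPM ± 17.1 (SD, n = 48), miR399e 25.3 ± 12.0, miR399c 12.1 ± 10.9 and miR827-3p 9.48 ± 6.96, which placed them at ranks 49, 53, 69 and 75 of the 110. In developing heads, miR399e averaged 12.2 RPM ± 9.87, miR399c 9.06 ± 10.6, miR827-5p 1.71 ± 1.23 and miR827-3p 1.45 ± 1.36, at ranks 58, 64, 103 and 106. The MIR827 arms lay mid-list in the flag leaf and near the bottom in the head, while the MIR399 pair kept similar places. The head values of miR827 rest on few reads. The 5p arm had a median of 6 reads per head library and under 10 reads in 32 of 48, and the 3p arm a median of 5 reads and under 10 in 34.

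**Figure D1:**
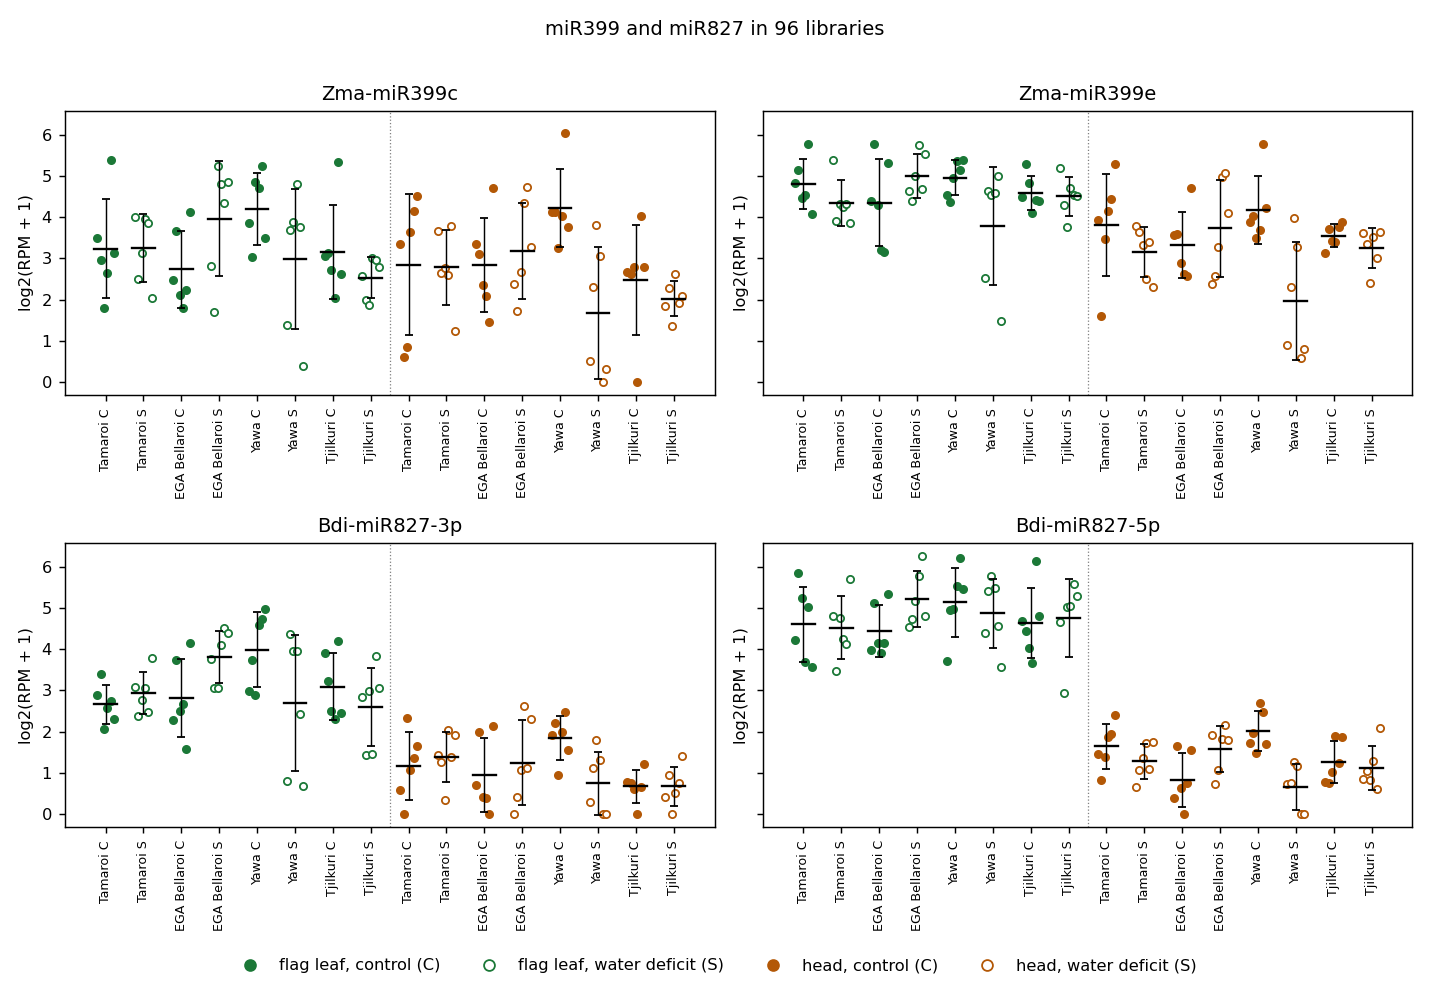
log2(RPM + 1) of the 4 members in every library, 1 panel per miRNA and 1 column per group of 6, filled for control (C) and open for water deficit (S), with the group mean (line) and SD (bar). The flag leaf and head points of miR827-5p separate in every genotype and treatment, while those of miR399c overlap.

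In the order of the 16 group means, the 8 flag leaf groups took the top 8 places for both miR827 arms, 7 of them for miR399e and 5 for miR399c. Group means of miR827-5p ran from 22.6 to 39.9 RPM in flag leaves and from 0.670 to 3.22 RPM in heads. For each miR827 arm, 1 of the 15 pairs of neighbours in that order differed by more than the larger of their SDs, the lowest flag leaf group against the highest head group (control Yawa). For miR399c and miR399e, 0 of 15 neighbours did. The highest mean of miR399c was in control Yawa heads (22.4 RPM ± 21.2), next to control Yawa flag leaves (20.1 ± 11.5), and the former rests largely on 1 library at 65.1 RPM.

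The first comparison asked how the organs of the same genotype and treatment differed. miR827 was far less abundant in the developing head than in the flag leaf, in every genotype and under both treatments, the 5p arm by 11.9-fold to 48.1-fold and the 3p arm by 3.61-fold to 13.6-fold (ratios of mean RPM of 6 libraries). The 48.1-fold came from water-deficit Yawa and was 28.7-fold without the 3 low heads. For miR399e the flag leaf to head ratio was 1.52 to 3.61, past the test in the 4 water-deficit comparisons. Its 3.61, also in water-deficit Yawa, was 1.94 without those heads. For miR399c it was 0.829 to 2.68 and passed in 0 of 8, with 0 at an unadjusted p under 0.05. By limma on log2(RPM + 1) over all 110 miRNAs, with p adjusted by Benjamini-Hochberg at 0.05, 20 of the 32 member tests passed, all lower in the head. Over all 110, 62.5% of tests passed in either direction and 51.6% passed as lower in the head, so a lower call was common. By comparison, control then stressed, the share called was 54.5% and 67.3% in Tamaroi, 66.4% and 67.3% in EGA Bellaroi, 60.0% and 65.5% in Yawa, and 57.3% and 61.8% in Tjilkuri.

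miR827-5p stood near the extreme of that background. In control Tamaroi its flag leaf values ran from 10.9 through a median of 24.7 to 56.3 RPM and its head values from 0.768 through 2.19 to 4.31 RPM. The lowest flag leaf was above the highest head. The difference was −2.96 on the log2 scale (SE 0.39, limma adjusted p = 5.4e-10), the smallest of the 8. In water-deficit Yawa the flag leaf values ran from 10.9 through 32.0 to 54.0 RPM and the head values from 0 through 0.676 to 1.40 RPM. Every head was again below every flag leaf, and the difference of −4.21 (SE 0.39, limma adjusted p = 3.6e-16) was the greatest of the 8. Without the 3 low heads it was −3.80 (adjusted p = 1.7e-10), and the organs still did not overlap. The organs did not overlap in 8 of 8 comparisons for miR827-5p, against 40.8% of comparisons over all 110 miRNAs, and its difference ranked from 5 to 7 from the lowest of 110 each time. The median difference of the 110 ran from −1.21 to −0.75. By comparison, control then stressed, the organs were apart for 30.9% and 46.4% of the 110 in Tamaroi, 36.4% and 42.7% in EGA Bellaroi, 44.5% and 25.5% in Yawa, and 43.6% and 56.4% in Tjilkuri.

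miR827-3p passed in 8 of 8 comparisons as well, with differences from −2.56 to −1.49 (SE 0.47, limma adjusted p from 2.2e-06 to 0.0051), and its organs did not overlap in 5 of 8. In control Tjilkuri its flag leaf values ran from 3.92 through 6.47 to 17.3 RPM and its head values from 0 through 0.638 to 1.34 RPM, the widest ratio of the 8. The organs were apart there, whereas in control Tamaroi the highest head, at 4.01 RPM, lay above the lowest flag leaf, at 3.16 RPM.

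miR399e gave differences from −1.81 to −0.78 (SE 0.49), all below 0. In water-deficit Tamaroi its flag leaves ran from 13.5 through 18.5 to 40.8 RPM and its heads from 3.93 through 9.23 to 12.8 RPM. These groups did not overlap (limma adjusted p = 0.028), while in control Yawa, with flag leaves from 19.5 to 40.9 RPM and heads from 10.2 to 53.6 RPM, they did (adjusted p = 0.16). For miR399c the differences ran from −1.31 to 0.11 (SE 0.66), with limma adjusted p of 0.074 or more, and the interval of the EGA Bellaroi control difference reached from −1.21 to 1.42. A difference of 1 on the log2 scale in either direction therefore lay within that interval.

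The sum of all listed miRNAs was itself lower in heads, so the calls were also made on other scales. When libraries were rescaled by the median ratio over the listed miRNAs, miR827-5p and miR827-3p stayed lower in the head in 8 of 8 comparisons each, miR399e passed in 0 with all estimates still below 0, and miR399c passed in 0 with 3 of 8 estimates below 0. Scaled to the sum of the listed miRNAs alone, miR827-5p was lower in 8 of 8 and miR827-3p in 4, while miR399e passed in 0 with 7 of 8 estimates below 0 and miR399c in 0 with 2 below 0. With flag leaf and head of the same plant joined in the fit, the calls were 8 for miR827-5p, 8 for miR827-3p, 7 for miR399e and 1 for miR399c. Over all listed miRNAs, joining the plant called 637 of 880 organ tests in either direction, against 550 without it. More calls were thus made across the list, and not for the members alone. Median-ratio scaling called 491 of the 880, and leaving out the 3 low Yawa libraries 563. For scaling to the listed sum, that count is not given here. miR827-5p passed in 8 of 8 comparisons under each of the 21 alternatives run, with a largest limma adjusted p of 0.0037. Without the 3 low Yawa libraries the calls were 8, 7, 5 and 0 in the order 5p, 3p, miR399e and miR399c. In water-deficit Yawa the call of miR827-3p was then lost, at −1.30 (limma adjusted p = 0.053, 5.36-fold by mean RPM), as was that of miR399e, at −0.61 (adjusted p = 0.36).

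**Figure D2:**
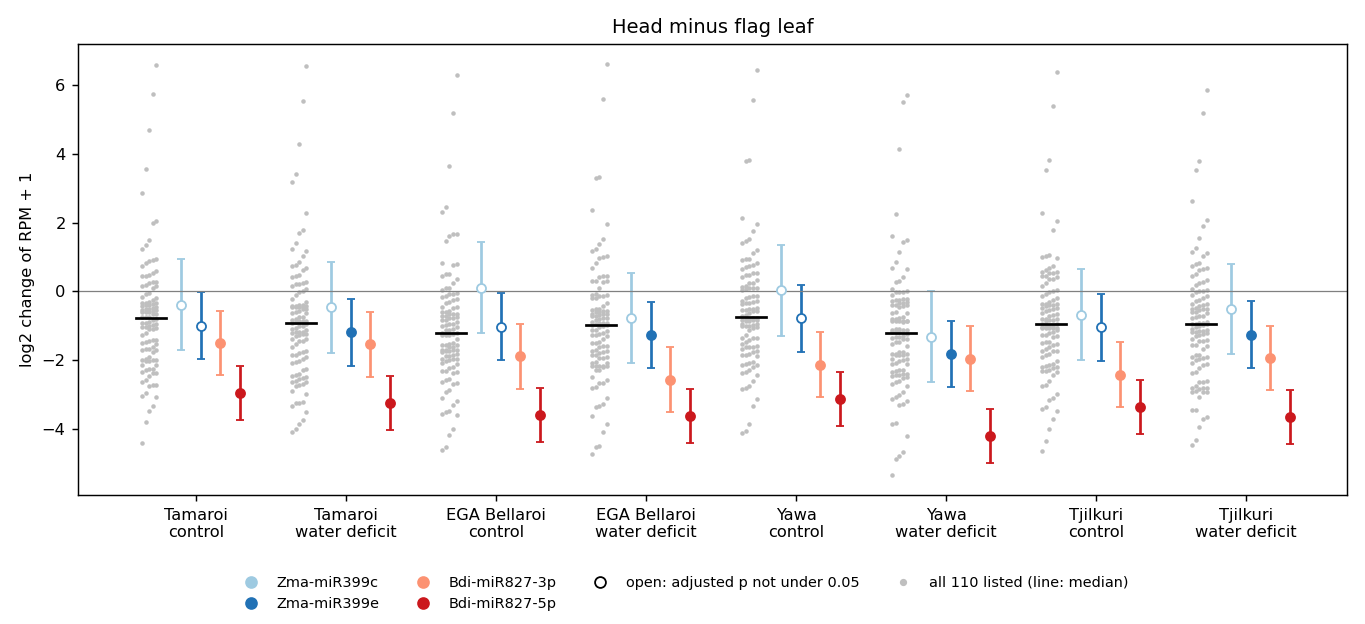
Head minus flag leaf difference of log2(RPM + 1) with its 95% interval for the 4 members in the 8 genotype and treatment comparisons, open where the limma adjusted p was not under 0.05, beside the 110 listed miRNAs (grey, line at the median). Both miR827 arms lie below 0 in every comparison, the 5p arm between −4.21 and −2.96, while the intervals of miR399c reach 0.

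The second comparison asked how each genotype and organ responded to water deficit. All 4 members were lower under stress in Yawa heads, and in the other 7 combinations of genotype and organ 0 of 28 member tests passed by limma, 3 of them at an unadjusted p under 0.05. Over all 110 miRNAs, 6.93% of tests passed, every one of them in Yawa heads, where 55.5% of the 110 were called and all were lower. The member calls there are to be read against that background.

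In Yawa heads, miR399c ran from 8.49 through 15.8 to 65.1 RPM in control plants and from 0 through 2.20 to 13.0 RPM under water deficit. Control values were mostly higher, but the groups overlapped. The difference was −2.55 (SE 0.68, limma adjusted p = 0.0056), the lowest of the 110, and the mean fell to 0.186 of control. miR399e ran from 10.2 through 14.6 to 53.6 RPM in control plants and from 0.500 through 2.42 to 14.7 RPM under stress. Again 1 stressed plant reached into the control range. Its difference was −2.20 (SE 0.53, adjusted p = 0.0045), with a mean at 0.241 of control.

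miR827-5p ran from 1.78 through 2.60 to 5.49 RPM in control Yawa heads and from 0 through 0.676 to 1.40 RPM in stressed ones. These groups did not overlap, which held for 2.73% of the 110 miRNAs in that comparison. Its difference was −1.35 (SE 0.31, limma adjusted p = 0.0045) and its mean 0.208 of control. miR827-3p ran from 0.944 through 2.89 to 4.61 RPM in control heads and from 0 through 0.691 to 2.45 RPM in stressed heads, with overlap. The difference was −1.11 (SE 0.41, adjusted p = 0.023), against a median of −0.99 over the 110.

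These calls rested on the 3 libraries that stood apart. Plants 1a, 2b and 2c gave 0.436, 0 and 0.252 RPM of miR399c, against 3.96, 12.97 and 7.36 RPM in plants 1b, 1c and 2a, and 3, 14 and 12 of the 110 listed miRNAs were at 0 in them. The low values were thus shared by much of the list in those 3. Without them the differences were −1.16 for miR399c, −0.99 for miR399e, −0.45 for miR827-3p and −0.94 for miR827-5p, with limma adjusted p of 0.92 to 0.95 and 0 of 110 miRNAs called. The stressed means were then 0.361, 0.446, 0.603 and 0.348 of control in the same order. In season 1 alone 0 members passed, and in season 2 alone, which holds 2 of the 3, all 4 did. Leaving out replicate 2b from every group ended all 4 calls, and leaving out 1a or 2c left 1. Replicate 2b also held the highest control Yawa head, at 65.13 RPM of miR399c and 53.61 RPM of miR399e. Its removal therefore does not isolate the low stressed library. Under median-ratio scaling 3 of the 4 passed, miR399c at −2.24, miR399e at −1.57 and miR827-5p at −1.16 (adjusted p = 0.027 each), and miR827-3p did not at −0.98 (adjusted p = 0.12), with 13 of the 110 called. What set these libraries apart was not tested.

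Of those plants, 1a and 2c also held the lowest flag leaf values of stressed Yawa for all 4 members. Their flag leaves gave 1.62 and 0.300 RPM of miR399c, against 11.9 to 26.9 RPM in the other 4 plants. miR399e stood at 4.73 and 1.80 RPM there, against 22.3 to 30.7 RPM. miR827-3p stood at 0.739 and 0.599 RPM, against 4.39 to 19.8 RPM. These leaves were the lowest for miR827-5p as well, but by less, at 20.1 and 10.9 RPM against 22.6 to 54.0 RPM. Listed miRNAs summed to 27778 RPM in the flag leaf of 1a, within the range of other flag leaves, and to 13511 RPM in that of 2c, the lowest of the 48. The flag leaf of plant 2b was not low, with 12.5 RPM of miR399c and 30.7 RPM of miR399e.

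In the other 7 combinations the estimates went in both directions and none passed after adjustment, while the intervals of 3 left out 0. In EGA Bellaroi flag leaves, miR399c ran from 2.46 through 4.16 to 16.5 RPM in control plants and from 2.26 through 23.2 to 36.7 RPM under stress. Most stressed leaves were higher but the ranges overlapped, and the difference of 1.23 had an interval from −0.03 to 2.48 (limma adjusted p = 0.52). In Yawa flag leaves, miR827-3p differed by −1.29 (interval −2.33 to −0.24, adjusted p = 0.22) and miR399e by −1.16 (interval −2.04 to −0.28, adjusted p = 0.22), neither past the threshold after adjustment. In EGA Bellaroi heads, miR827-5p ran from 0 through 0.628 to 2.12 RPM in control plants and from 0.658 through 2.51 to 3.48 RPM under stress. The ranges overlapped, and the difference was 0.75 (interval 0.13 to 1.37, unadjusted p = 0.019, limma adjusted p = 0.46).

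**Figure D3:**
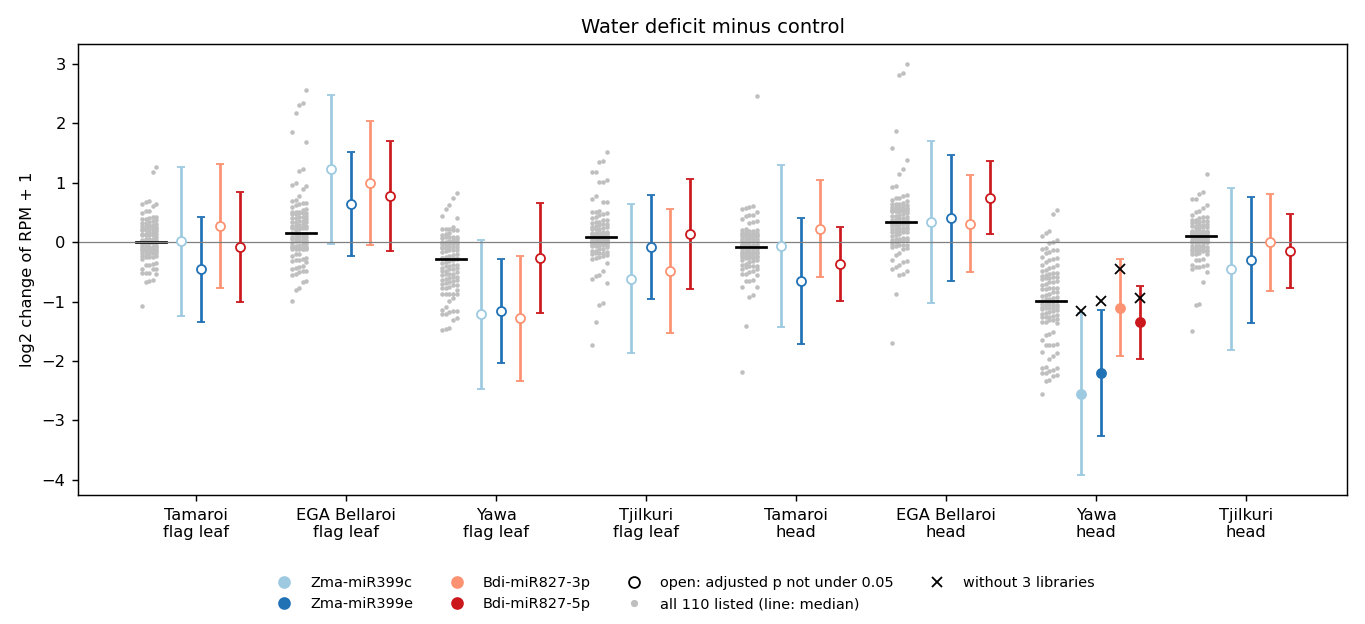
Water deficit minus control difference of log2(RPM + 1) with its 95% interval for the 4 members in the 8 combinations of genotype and organ, open where the limma adjusted p was not under 0.05, beside the 110 listed miRNAs (grey, line at the median). The Yawa head estimates lie between −2.55 and −1.11 with all libraries and between −1.16 and −0.45 without the 3 low ones (crosses).

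The study tested its candidate hairpins for an interaction of tolerance and treatment. The same interaction was fitted here to the listed miRNAs, with organ added as a term, a choice made for this fit. Each side was a single pair of genotypes and the fit held no term for genotype. Its p-values therefore measure the spread between libraries and not that between tolerant or sensitive genotypes. The response was lower in the tolerant pair for miR399e, by −1.29 on the log2 scale (SE 0.35, limma adjusted p = 0.0098), and for miR827-5p, by −0.90 (SE 0.28, adjusted p = 0.025). The estimates for miR399c, −1.08 (adjusted p = 0.079), and miR827-3p, −0.68 (adjusted p = 0.13), did not pass. Of the 110 miRNAs, 25.5% were called, all lower, and the median was −0.48. Both calls were lost without the 3 low Yawa libraries (adjusted p = 0.070 for miR399e and 0.11 for miR827-5p) and with the organs of a plant joined (0.070 and 0.12). In season 1 alone the difference for miR399e was −0.07 (adjusted p = 1.0), and in season 2 alone −2.50, with all 4 members called.

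Tests of the same question within each genotype pair and organ (Tamaroi against EGA Bellaroi, Yawa against Tjilkuri) gave 0 of 16 member calls by limma, with 4 at an unadjusted p under 0.05 and a smallest adjusted p of 0.058. Over all 110, 0.455% were called, all in the Yawa and Tjilkuri heads (1.82%). Without the 3 low Yawa libraries 0 of the 110 were called there by limma, and the member adjusted p were 0.84 to 0.88. Whether the response differed between the organs of a genotype gave 0 of 16 calls, with 0 at an unadjusted p under 0.05. The background there was 0% of tests.

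Levels in the tolerant and sensitive genotype of each pair did not differ past the threshold in any of 32 member tests by limma, with 5 at an unadjusted p under 0.05, where 4.89% of tests over the 110 passed. In heads, 29.1% were called between Yawa and Tjilkuri under water deficit, and 7.27% (control) and 1.82% (water deficit) between Tamaroi and EGA Bellaroi, while 0.909% were called between the last pair in stressed flag leaves and 0% in the other 4 comparisons. The smallest adjusted p was 0.059, for miR399e in heads under water deficit, where Yawa had 4.91 RPM ± 5.73 and Tjilkuri 8.93 ± 2.81 and the 3 low libraries were on the Yawa side. Without them Yawa had a mean of 9.10 RPM, the limma adjusted p was 0.95 and 0 of the 110 were called in that comparison. In control heads miR827-3p averaged 2.82 RPM ± 1.27 in Yawa and 0.644 ± 0.432 in Tjilkuri. The highest Tjilkuri value, 1.34 RPM, lay above the lowest Yawa value, 0.944 RPM, and the difference of 1.18 had an unadjusted limma p of 0.0055 and an adjusted p of 0.30.

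Between seasons, 0 of 8 member tests passed by limma, with 1 at an unadjusted p under 0.05, against 5.45% over the 110 (2.73% in flag leaves and 8.18% in heads). That 1 was miR827-5p in heads, at 2.18 RPM ± 1.45 in season 2 and 1.24 ± 0.721 in season 1 (n = 24 each, difference 0.40, limma adjusted p = 0.090). The ranges overlapped, from 0 to 5.49 RPM in season 2 and from 0.318 to 2.89 RPM in season 1. Without the 3 low Yawa libraries this difference passed, with an adjusted p of 0.0080. Whether the season difference itself differed between organs gave 0 of 4 calls, with 0 at an unadjusted p under 0.05 and a background of 0%.

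The arms of the miR827 hairpin differed in read count. Whether the 2 sequences are recovered equally well as reads was not tested. As a share of the reads of both arms, which does not depend on library depth, the 5p arm made up 77.1% ± 8.77 (SD, n = 48) in flag leaves and exceeded the 3p arm in 48 of 48. In heads its share was 57.9% ± 22.3 (n = 46), higher than the 3p arm in 24 libraries, equal in 4 and lower in 18, and 2 libraries had no read of either arm. Of the 46, 32 held under 20 reads of both arms, so single head shares are coarse. The mean 5p share was lower in the head in 8 of 8 comparisons, by 8.26 to 34.0 percentage points, and 0 of these passed a two-sided exact permutation test adjusted over the 32 share tests (smallest p = 0.0095, adjusted 0.12). The widest gap was in water-deficit Yawa, with 48.8% in 4 heads with reads and 82.8% in 6 flag leaves. Without the low heads it was 40.0% in 3 heads (exact p = 0.012, the smallest possible, adjusted 0.12).

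Of the miR399 pair, miR399e took the larger share, 71.6% ± 13.0 (n = 48) in flag leaves and 62.9% ± 13.5 (n = 48) in heads, and exceeded miR399c in 44 and 38 libraries. Its mean share was lower in the head in 8 of 8 comparisons, by 1.17 to 17.3 percentage points, with 0 past the adjusted exact permutation test (smallest p = 0.0065, adjusted 0.12). The 1.17 points, in water-deficit Yawa, became 15.3 without the 3 low heads. By treatment, 0 of the 16 share tests of either family passed (smallest exact p = 0.037, adjusted 0.15). In Yawa heads the miR399e share was 66.5% under stress and 49.2% in control plants, the comparison with that smallest p. Without the 3 low heads the stressed share was 52.4% (exact permutation p = 0.42, adjusted 0.51).

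**Figure D4:**
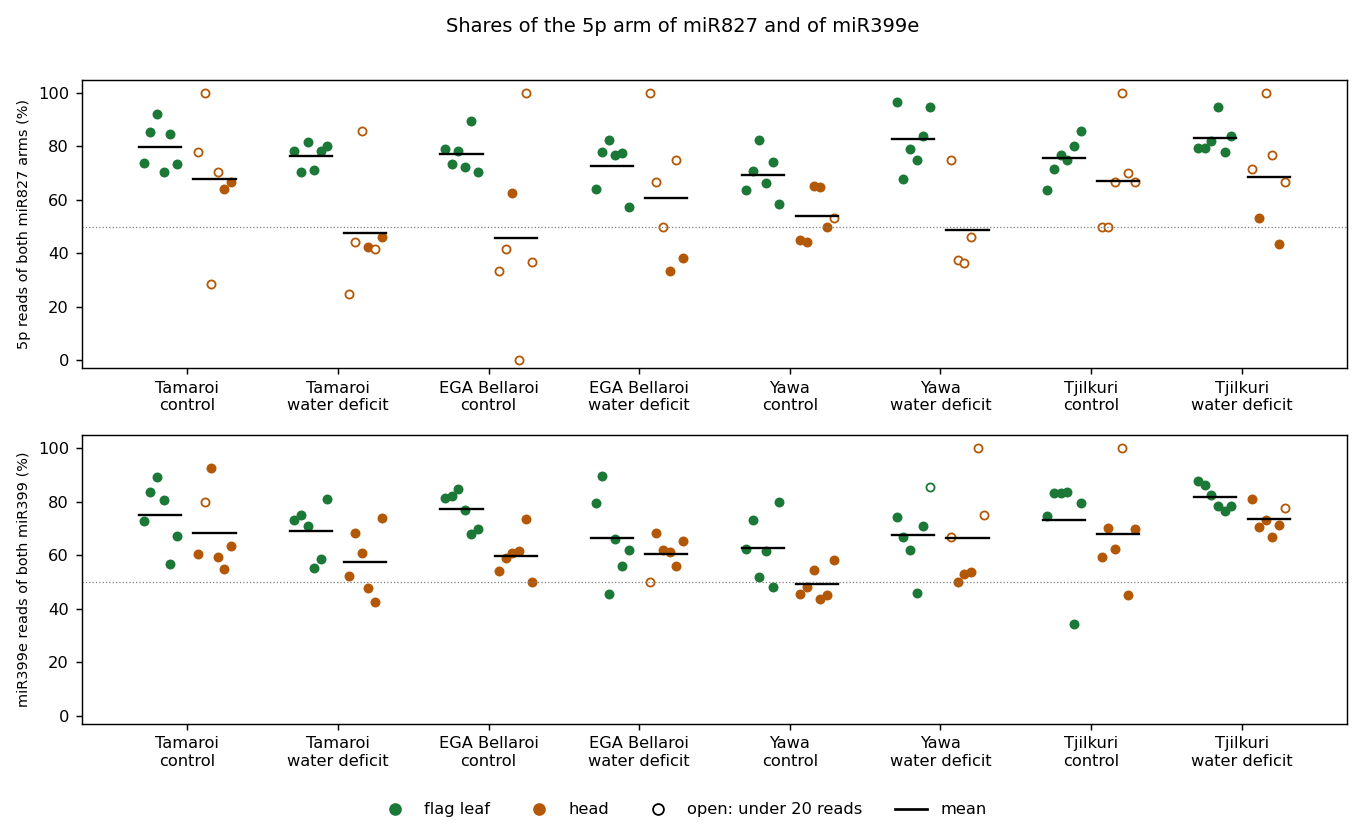
Share in percent of the 5p arm among miR827 reads (top) and of miR399e among miR399 reads (bottom) in each library, with the group mean as a line and open points for libraries under 20 reads. The miR827 5p share lies above 50% (dotted) in all 48 flag leaf libraries and on both sides of it in heads.

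Members also varied together from plant to plant within a group. After the mean of the 3 libraries of a genotype, treatment and season was removed from log2(RPM + 1), 16 relations were tested by permutation within those sets, and 12 had an adjusted p under 0.05. The miR399 pair was the closest, with r = 0.77 in flag leaves (rho = 0.79, permutation adjusted p = 0.00016, n = 48) and r = 0.83 in heads (rho = 0.81, adjusted p = 0.00016), and r of 0.76 and 0.85 without the 2 libraries farthest out. Within seasons these were 0.76 and 0.78 in flag leaves and 0.83 in both seasons in heads. The miR827 arms gave r = 0.69 in flag leaves (rho = 0.70, permutation adjusted p = 0.00016, 0.67 without 2, 0.65 and 0.73 within seasons) and r = 0.47 in heads (rho = 0.41, adjusted p = 0.016, 0.42 without 2, 0.35 and 0.58 within seasons). The head relation of the arms was no longer past the threshold without the 3 low Yawa libraries (r = 0.40, permutation adjusted p = 0.077, n = 45) or under median-ratio scaling (r = 0.34, permutation adjusted p = 0.11, n = 48). That of the miR399 pair in heads stayed past it, at r = 0.76 and 0.78 (permutation adjusted p = 0.00016 each). Of the 16 relations, 9 passed without those libraries and 7 under that scaling. A pair of listed miRNAs had a median r of 0.24 in flag leaves and 0.27 in heads, so positive values were usual. Among the 5995 listed pairs, 3.64% had a higher r than the miR399 pair in flag leaves and 2.07% in heads. For the miR827 arms these shares were 6.49% and 27.1%, and for a miR399 member with a miR827 arm 11.3% to 44.7%. How many of all listed pairs would pass the test was not computed. The members of a pair share a library, and the miR399 pair could share reads.

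miR399c in the flag leaf went with miR399c in the head of the same plant, at r = 0.63 (rho = 0.54, permutation adjusted p = 0.0040, n = 48 plants). Without the 2 plants farthest out r was 0.60, without the 3 low Yawa heads 0.60, and within seasons 0.56 and 0.67. The median over the 110 listed miRNAs was 0.32. For miR399e (r = 0.39, rho = 0.32, permutation adjusted p = 0.15), miR827-3p (r = 0.34, rho = 0.24, adjusted p = 0.10) and miR827-5p (r = 0.16, rho = 0.15, adjusted p = 0.34) the relation did not pass. Whether it differs between the members was not tested.

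**Figure D5:**
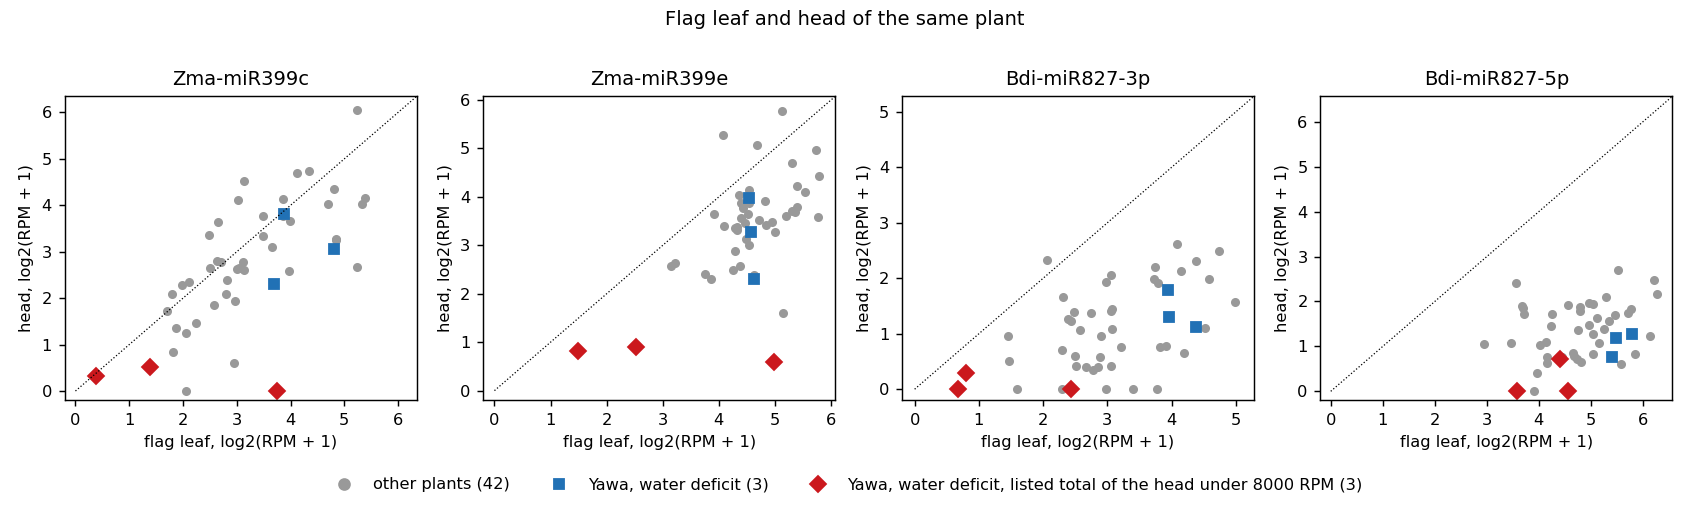
Level in the head against level in the flag leaf of the same plant, both as log2(RPM + 1), 1 panel per member and 1 point per plant, with stressed Yawa as blue squares and its 3 low heads as red diamonds (dotted line: equal levels). The plants of miR399c lie around the line, while all those of miR827-5p lie below it.

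Over the 96 libraries, the listed miRNA most like miR399c in log2(RPM + 1) was miR399e (r = 0.76), and the one most like miR827-3p was miR827-5p (r = 0.86). For miR399e it was Bdi-miR168 (r = 0.83) and for miR827-5p Osa-miR167e (r = 0.90). These values describe libraries that share the organ difference and their depth, and they carry no test. With group and season means removed, the closest to each miR399 member was the other (r = 0.80), to miR827-5p it was miR827-3p (r = 0.62), and to miR827-3p it was Bdi-miR5064 (r = 0.78).

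For context, 9 listed miRNAs of other nutrient-related families were counted in the same fits: miR395, which acts in sulfate supply, miR397, miR398, miR408 and miR528, which target copper proteins, and miR444, which acts in nitrate and phosphate signalling in rice. In heads against flag leaves 41 of their 72 tests passed (over the 110, 62.5% in either direction and 51.6% as lower), all lower and all within the 56 tests of the copper families. The sulfate and miR444 members passed in 0 of 8 each by limma. Under median-ratio scaling 25 of the 72 passed as lower and 1 as higher. With the plant as a block these were 49 and 1, and without the 3 low Yawa libraries 40 and 0. Over the 110, these settings called 491, 637 and 563 of 880 organ tests in that order, against 550 with none of them. Under water deficit 2 of 72 passed, both lower in Yawa heads, where Osa-miR444b differed by −1.92 (limma adjusted p = 0.0056). Over the 110, 6.93% of tests passed, and 55.5% in Yawa heads. Both calls were lost without the 3 low Yawa libraries, where Osa-miR444b stood at −0.44 (limma adjusted p = 0.97) and 0 of the 110 were called. Between seasons 8 of 18 passed (5.45% over the 110), all copper-family miRNAs higher in season 2, with Bdi-miR397b at 1.46 in heads (adjusted p = 0.0041), while the phosphate-related members passed in 0 of 8. In the fit of tolerance by treatment 6 of 9 were lower, Zma-miR528a by −3.05 (adjusted p = 0.0048), where 25.5% of the 110 were called. With the plant as a block 2 of the 9 were lower (3 of the 110 called), and without the 3 low Yawa libraries also 2 (2 of the 110 called). Zma-miR528a passed in both, with limma adjusted p of 0.025 and 0.015, as did Zma-miR398b, with 0.028 and 0.023, a miRNA named here after its values were seen.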

How the data were processed

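The authors size-selected small RNA, sequenced it, trimmed the reads in CLC Genomics Workbench 7.0, kept 15 to 50 nt, matched unique small RNAs, up to 2 mismatches allowed, to the mature plant miRNAs that miRBase 20 lists for 9 species, and divided by all small RNA reads. The RPM table that the authors deposited holds the 110 miRNAs above 2 RPM in at least 48 libraries. A miRNA low in a whole organ could pass through the other, and the denominator holds all small RNAs, so RPM also moves with the other classes. The table of candidate hairpins was not used, and 0 columns were left without a library.

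Depth was recovered from RPM steps: all 10451 values above 0 were whole reads to within 0.01 reads. One read is worth 1.64 RPM in the shallowest library and 0.0277 RPM in the deepest.

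Differences were tested with limma 3.58.1 (R 4.3.3, trended variances) on log2(RPM + 1), which understates changes at low RPM, over all 110 miRNAs, adjusted by Benjamini-Hochberg within each comparison at 0.05. Organ and interaction fits used 96 libraries, the others the 48 of an organ. Within an organ the labels name separate plants, so p-values of the 48-library fits measure the spread between plants. The 96-library fits took both organs of a plant as separate libraries, except where the plant was joined. Their p-values measure the spread between libraries. Shares were tested by exact permutation (two-sided) and correlations by 100000 permutations. On simulated data limma recovered 39% of log2 changes of 1 and 93.5% of changes of 2 in the control Yawa organ comparison. In the Yawa head water-deficit comparison it recovered 43.5% and 88%. False calls were made in 0.222% to 1.22% of unchanged simulated miRNAs. In the real libraries listed miRNAs deviated together, with a median r of 0.24 in flag leaves and 0.27 in heads. Real calls in the Yawa head water-deficit comparison went from 61 of 110 to 0 without the low Yawa libraries. Whether the simulated rates cover such shifts shared by a whole library was not tested.

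Plant labels pair the organs: the deviations of flag leaf and head of a plant had a median r of 0.51, with 43 of 48 over 0.1. Named miRNAs are the members, a list of nutrient-related families (values only for the smallest adjusted p of a comparison) and the closest in pattern to each member. Members and lists were chosen with earlier results of these data known. Alternatives changed pseudocount, filter, scaling, variance model, season, replicates and blocks. Leaving out the 3 low Yawa libraries was chosen after seeing the data.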

Additional observations from a re-analysis of the deposited data

Results flagged for a closer look

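In groups of 6, a highest or lowest library far from its nearest neighbour relative to the group's range (Dixon's criterion at 95%) was found in 10 of 64 groups of member and group, 15.6%. Chance gives about 1 in 20 for independent, normally distributed values. The criterion was applied to RPM without a log and the members share libraries, so the share flagged cannot be set directly against that rate. All 10 were high libraries. For miR399c these were control Tamaroi flag leaf 2b (40.98 RPM), control EGA Bellaroi head 2c (24.98 RPM), control Yawa head 2b (65.13 RPM) and control Tjilkuri flag leaf 2b (39.07 RPM). For miR399e they were stressed Tamaroi flag leaf 1a (40.75 RPM), control EGA Bellaroi head 2c (24.98 RPM) and control Yawa head 2b (53.61 RPM). For miR827-3p it was stressed Tamaroi flag leaf 2c (12.86 RPM). For miR827-5p they were control Tjilkuri flag leaf 2b (69.52 RPM) and stressed Tjilkuri head 2c (3.28 RPM).

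The response to water deficit was lower in the tolerant than in the sensitive genotypes for miR399e, by −1.29 (limma adjusted p = 0.0098), and for miR827-5p, by −0.90 (limma adjusted p = 0.025), by a test of the difference of the responses. Of the 110 miRNAs, 25.5% were called in that fit, all lower, with a median of −0.48. Both calls were lost with the organs of a plant joined in the fit (adjusted p = 0.070 and 0.12) and without the 3 low Yawa libraries (0.070 and 0.11). In season 1 alone the difference for miR399e was −0.07.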

How the results depend on the processing

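Organ calls of the members, 20 of 32, became 12 scaled to the sum of the listed miRNAs and 17 to 24 with 1 replicate left out. Water-deficit calls, 4, became 0 in season 1 alone, 0 without the 3 low Yawa libraries and 0 to 4 with 1 replicate left out. Tolerance by treatment, 2 calls, gave 1 with a pseudocount of 5, 1 with median-ratio scaling, 1 scaled to the sum of the listed miRNAs, 4 in season 2 alone, and 0 in season 1 alone, with the plant as a block, within each organ and without the 3 low libraries, and 0 to 4 with 1 replicate left out. Its estimate turned positive in season 1 alone for miR399c (0.30) and miR827-3p (0.086). Season, 0 calls, gave 1 with a pseudocount of 5, 1 without the 3 low libraries and 0 to 1 with 1 replicate left out. Genotype, 0 calls, gave 1 with a pseudocount of 0.25, 1 in season 2 alone, 1 when fitted on the 12 libraries compared and 0 to 1 with 1 replicate left out. Response differences in pairs, 0 calls, gave 0 to 4 with 1 replicate left out, the 4 without replicate 1c. Correlations past the threshold, 12 of 16, became 7 with median-ratio scaling and 9 without the 3 low Yawa libraries. Calls over the 110 moved too. With median-ratio scaling and without the 3 low libraries, water-deficit calls went from 61 of 880 to 16 and 0. Organ calls went from 550 of 880 to 491 and 563, and to 637 with the plant as a block. Tolerance calls went from 28 of 110 to 6 and 2, and to 3 with the plant as a block. Genotype calls went from 43 of 880 to 6 and 12, and season calls from 12 of 220 to 11 and 14. Counts over the 110 for the other alternatives are not given here. The cause of these changes was not tested.

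A replicate block of season and letter left the counts at 20, 4 and 2 and changed no call. Same-lettered libraries of different groups did not deviate together more than others (median r of 0.089 against 0.10), so letters show no pairing. Of the 48 recomputed organ and water-deficit folds, 45 moved by less than the replicate spread, 3 moved by more and 0 reversed. Of 7 called folds recomputed without the 3 low Yawa libraries, 5 moved by more. The planned count tests on recovered reads were not run. At 1 read worth up to 1.64 RPM, head differences of miR827 under about that size were not detectable in the shallowest libraries.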
